A study of Mus musculus with 12 samples.

Results

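The nuclear genes for the subunits of the oxidative phosphorylation system were described in the brain of wild-type C57BL/6J mice. Members were taken by gene symbol, with the patterns for complex I (Nduf), complex II (Sdh), complex III (Uqcr), complex IV (Cox) and ATP synthase or complex V (Atp5), and with a mean of at least 1 CPM (counts per gene scaled to a common library total) over the 12 libraries. Of 53379 genes in the count table, 96 matched the patterns. Of these, 8 carried a pseudogene suffix, 10 were under 1 CPM, and 78 were kept: 35 in complex I, 4 in complex II, 8 in complex III, 14 in complex IV and 17 in complex V. Ndufa4, long listed with complex I, was placed in complex IV, where its protein is now assigned. Just inside the level limit were Cox6a2 at a mean of 1.42 CPM and Cox6b2 at 1.47 CPM, and just outside it were Cox7a1 at 0.852 CPM and Ndufa4l2 at 0.605 CPM.

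RNA sequencing was done on total RNA from brain tissue that the submitters describe as cortex, in a design of 2 diets by 2 injury states with 3 libraries in each of the 4 groups. The purified sham and purified injured groups ate a purified control diet without interruption, and the fish oil sham and fish oil injured groups ate a high fat diet with added fish oil in cycles, so fat content and fish oil vary together between the diets. Injury was a series of closed head impacts below the mild grade (rlmTBI), sham mice had none, and tissue was taken 6 months later. All 4 groups were wild type, and libraries are named by group and by the replicate number 2, 3 or 4 of their titles. Whether each library came from its own animal is not said in the labels. The p-values therefore reflect only how far these libraries spread, which may be technical. Replicates 3 and 4 of each group share the first number of their library name (10, 5, 13 and 14), and replicate 2 has another. No such number occurs in 2 groups, so what it stands for cannot be told apart from group. Its meaning is not given in the sources used here. Libraries 3 and 4 may not be independent, while the fit takes all 3 as such. Totals ran from 46362158 to 70754854 counts per library, and 0.643% to 0.792% of them fell on the 78 subunit genes.

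Complexes I to IV pass electrons from NADH and succinate to oxygen in the inner mitochondrial membrane, and the proton gradient that complexes I, III and IV build drives ATP synthase. Most subunits are encoded in the nucleus and imported, while the mitochondrial genome supplies a few hydrophobic core subunits, so each complex except complex II is built from both genomes. Neurons draw most of their ATP from this system, and transcription of its nuclear genes is classically linked to the factors NRF1, GABPA (an ETS factor), YY1 and the estrogen-related receptors with the coactivator PGC-1α.

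Promoter sequence was matched by symbol for 63 of the 78 members in a RefSeq table on GRCm38.p6, in windows of 300 bases from 250 before to 50 after the transcription start. A window was searched on both strands for 4 letter strings. The NRF1 string, a palindrome that stands in capitals in the Cox6a1 window below, was held by 5 of the 63 members (7.94%), against 2.45% of 7632 other protein-coding genes of at least 10 CPM and 1.47% of all 17492 protein-coding genes in the table. The ETS string CCGGAAG was held by 16 members (25.4%), against 20.4% and 12.9%. The YY1 string AAGATGGCG was held by 7 members (11.1%), against 3.88% and 2.14%. The estrogen-related receptor string TCAAGGTCA was held by 2 members (3.17%), against 0.262% and 0.377%. No string contains another, though their ends can overlap. In all, 26 of the 63 members held at least 1 of them. A match is a description of letters, not of a bound site. Upstream windows of 4 members are printed below on GRCm38.p6, 5′ to 3′ on the strand of the gene and without bases of annotated exons. They show 1 member each with the NRF1, ETS and receptor strings, in capitals, and Cox7b, a member described at length below, with none. The Cox6a1 window is chr5:115348982-115349129 (minus strand), with its capitals beginning 162 bases before the start. The Uqcrh window is chr4:116075072-116075268 (minus strand), with its capitals, the reverse complement of the ETS string, beginning 10 bases before the start. The Atp5g3 window is chr2:73911327-73911576 (minus strand), with its capitals, the reverse complement of the receptor string, beginning 52 bases before the start. The Cox7b window is chrX:106015450-106015699 (plus strand).
Cox6a1: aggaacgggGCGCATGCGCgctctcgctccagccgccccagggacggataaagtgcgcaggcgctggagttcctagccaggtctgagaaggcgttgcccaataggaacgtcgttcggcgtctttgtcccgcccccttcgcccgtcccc
Uqcrh: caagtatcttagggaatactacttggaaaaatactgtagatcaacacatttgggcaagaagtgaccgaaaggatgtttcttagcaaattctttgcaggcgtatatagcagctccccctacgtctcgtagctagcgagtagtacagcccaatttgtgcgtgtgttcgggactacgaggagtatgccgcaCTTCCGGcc
Atp5g3: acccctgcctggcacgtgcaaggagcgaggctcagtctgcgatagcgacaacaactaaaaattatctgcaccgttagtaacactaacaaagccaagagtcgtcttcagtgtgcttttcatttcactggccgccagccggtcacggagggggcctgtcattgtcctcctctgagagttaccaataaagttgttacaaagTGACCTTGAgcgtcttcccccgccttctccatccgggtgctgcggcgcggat
Cox7b: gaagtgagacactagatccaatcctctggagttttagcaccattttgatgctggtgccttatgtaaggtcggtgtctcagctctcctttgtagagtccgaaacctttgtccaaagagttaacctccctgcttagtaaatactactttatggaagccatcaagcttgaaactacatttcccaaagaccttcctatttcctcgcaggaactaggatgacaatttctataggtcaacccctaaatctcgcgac

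The label of the tissue was checked against markers first, because some libraries stood apart. Transcripts of excitatory neurons were present in all 12 libraries: Slc17a7, the vesicular glutamate transporter of cortical neurons, ranged from 492 to 1083 CPM. Transcripts of other brain regions were present in some of them. The summed level of 6 choroid plexus markers was 24.8 to 475 CPM in the purified sham group, 17.0 to 36.3 CPM in the purified injured group and 32.4 to 63.1 CPM in the fish oil sham group. In the fish oil injured group it was 220.1, 2628 and 2482 CPM, so every library of that group carried more of it than every purified injured library, and all 6 markers showed this. Olfactory bulb markers were high in purified injured library 3, with Cdhr1 at 522 CPM, and striatal markers in fish oil sham library 2, with Drd2 at 72.2 CPM. The summed level of 5 endothelial markers moved with diet. It was 128 to 174 CPM in purified sham and 98.0 to 137 in purified injured libraries. In fish oil sham libraries it was 73.3 to 91.8 and in fish oil injured libraries 71.02 to 86.6, so that all 6 purified libraries stood above all 6 fish oil libraries. Of the markers, Slco1a4 ran from 35.8 to 56.9 CPM in purified injured and from 25.3 to 31.6 CPM in fish oil injured libraries. Flt1 and Pecam1 also separated these injured groups. Cldn5 (2.60 to 4.56 against 2.77 to 4.43 CPM) and Ly6c1 (10.06 to 17.4 against 8.91 to 13.3 CPM) overlapped between them. The part of endothelial cells in the diet comparisons was not tested. These values are set beside the results they move with. In bulk tissue, fewer cells of a type and less RNA per cell cannot be told apart.

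Over all 78 members, levels were lowest in the purified injured group and highest in the fish oil injured group. The mean of each gene's log2 CPM minus its own mean over the 12 libraries was -0.07, -0.15 and 0.06 in the purified sham libraries, in the order of replicates 2, 3 and 4 used throughout. It was -0.15, -0.13 and -0.10 in the purified injured libraries, 0.07, 0.11 and -0.01 in the fish oil sham libraries, and -0.03, 0.12 and 0.29 in the fish oil injured libraries. All 3 purified injured libraries lay below all 6 fish oil libraries, while purified sham library 4 lay among the latter. Their summed level ran from 6334 CPM in purified injured library 2 to 8421 CPM in fish oil injured library 4. The fish oil injured group had the highest group mean for 60 of the 78 members, against 27.2% of all tested genes, and the purified injured group had the lowest for 60, against 28.8%. A single library carried much of this: fish oil injured library 4 was the highest of the 12 for 56 members, and purified injured library 2 was the lowest for 35. Fish oil injured library 4 was also among the libraries high in choroid plexus markers.

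**Figure D1:**
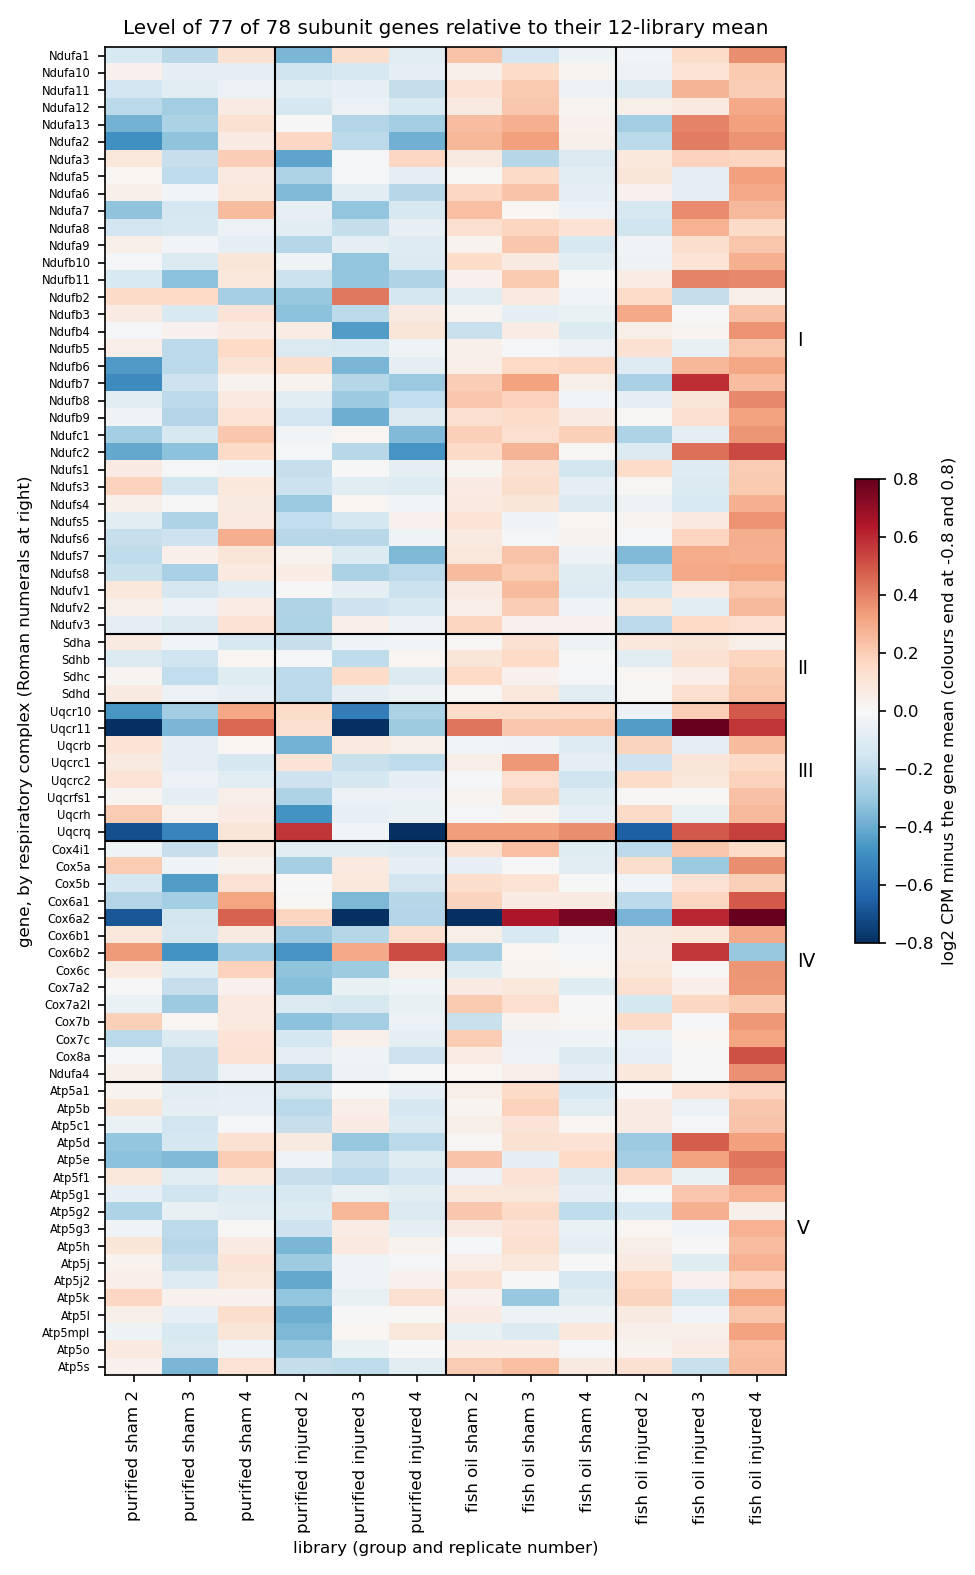
Log2 CPM of 77 of the 78 subunit genes minus its mean over the 12 libraries, with genes in rows by complex and libraries in columns by group; the colour scale ends at -0.8 and 0.8. The last column, fish oil injured library 4, is the highest of the 12 for 56 of the 78 genes, and the purified injured columns are mostly below the mean.

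No member passed the threshold of an adjusted p of 0.05 in any of the 7 comparisons by edgeR's quasi-likelihood test, and neither did any of the 19252 genes tested, which is 0% called in each comparison. All 78 members passed the low-count filter. The diet comparison in injured mice, fish oil minus purified, held the largest median difference. Its log2 fold change was above 0 for 76 of 78 members, against 50.8% of all tested genes, with a median of 0.24 against 0.0058. Of the 78, 20 had an unadjusted p under 0.05, all of them higher on the fish oil diet, where 10.7% of all tested genes had such a p in either direction and 3.89% in the higher direction. In 22 members all 3 fish oil injured libraries stood above all 3 purified injured libraries, against 5.6% of all tested genes, and in 0 members they stood below, against 5.98%. DESeq2 called 1 member, Ndufb11, among 186 genes called in that comparison, which is near the share over all tested genes. Limma-voom called 0 members.

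By complex, the median log2 fold change of diet in injured mice was 0.25 in complex I, 0.15 in complex II, 0.24 in complex III, 0.25 in complex IV and 0.21 in complex V. Members above 0 numbered 34 of 35 in complex I, 4 of 4 in complex II, 8 of 8 in complex III, 13 of 14 in complex IV and 17 of 17 in complex V. Those with an unadjusted p under 0.05 numbered 11, 1, 2, 4 and 2 in the same order, against 10.7% of all tested genes in either direction and 3.89% in the higher one. No test was made between the complexes. The pattern rested in part on fish oil injured library 4: without it, members with an unadjusted p under 0.05 numbered 2 and the median over all members was 0.15, with 76 above 0. Such members numbered 38 without fish oil injured library 2 and 13 without purified injured library 2. For counts under alternatives, here and below, the share of all tested genes with such a p is not given. They therefore do not show whether members moved more than other genes. With scores of the choroid plexus, striatal and olfactory bulb markers as covariates, 0 members had such a p and 55 were above 0. The median was then 0.16, with 0.13, 0.14, 0.10, 0.21 and 0.26 in complexes I to V. The choroid plexus markers separate the injured groups by diet, and the covariates use up residual degrees of freedom. This fit therefore cannot tell diet from tissue content in injured mice.

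Injury within each diet gave smaller differences of opposite sign. On the purified diet, injured minus sham, 15 of 78 members were above 0 (50.6% of all tested genes were), the median was -0.08 and 2 members (Cox7b and Uqcrh, both lower) had an unadjusted p under 0.05, against 6.5% of all tested genes in either direction and 2.57% in the lower one. In 6 members all 3 injured libraries stood below all 3 sham libraries, against 6.68% of all tested genes, which is near the background. Without purified sham library 4 the median on the purified diet was -0.02, and without purified injured library 2 it was -0.05. On the fish oil diet 63 of 78 were above 0, against 49% of all tested genes, the median was 0.07, and 0 members had an unadjusted p under 0.05, against 3.48% of all tested genes. There the injured libraries stood wholly above the sham libraries in 2 members, Cox6b1 and Ndufa3 (the latter named after its values were seen), against 4.97% of all tested genes. The median on the fish oil diet was -0.01 without fish oil injured library 4, 0.14 without fish oil injured library 2 and 0.02 without fish oil sham library 4. Averaged over the diets, the median of injury was 0.0029, with 40 of 78 above 0 (50.3% of all tested genes were), 0 of them with an unadjusted p under 0.05, and 3.6% of all tested genes with one. Its sign turned with the library left out, from -0.03 without fish oil injured library 4 to 0.03 without fish oil injured library 2.

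Diet in sham mice gave a median of 0.08, with 59 of 78 members above 0, against 51.1% of all tested genes. That median was 0.05 without fish oil sham library 3, 0.13 without fish oil sham library 4 and 0.03 with offsets for transcript length and GC content. Ndufa8 was the member with an unadjusted p under 0.05, 1 of 78, against 3.69% of all tested genes in either direction and 1.74% in the higher one. Ndufa8, a complex I accessory subunit, was chosen for mention after its values were seen, at a log2 fold change of 0.25 ± 0.11 (adjusted p = 0.934, edgeR). All 3 fish oil sham libraries stood above all purified sham libraries in 5 members, against 6.31% of all tested genes, and below them in 1, Uqcrh, against 7.45%. The diet effect averaged over sham and injured mice had a median of 0.15, with 76 of 78 above 0, against 52.5% of all tested genes. There 19 members had an unadjusted p under 0.05, all higher, against 8.85% of all tested genes in either direction and 2.75% in the higher one. Leaving out a library took this number from 9 (purified sham 2 or fish oil injured 4) to 31 (fish oil injured 2). The interaction, the diet difference in injured mice minus that in sham mice, had a median of 0.16, with 65 of 78 above 0, against 47.6% of all tested genes. Of them, 5 members (Cox7b, Uqcrh, Atp5f1, Cox6c and, named after its values were seen, Ndufb3, all positive) had an unadjusted p under 0.05, 6.41%, against 5.76% of all tested genes in either direction and 2.85% in the positive one, and the lowest adjusted p among members was 0.820. Without fish oil injured library 4 the median of the interaction was 0.06 and 1 member had such a p. These comparisons share groups: the purified injured libraries enter injury on the purified diet, diet in injured mice and the interaction, so a low value there shows in all of them.

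**Figure D2:**
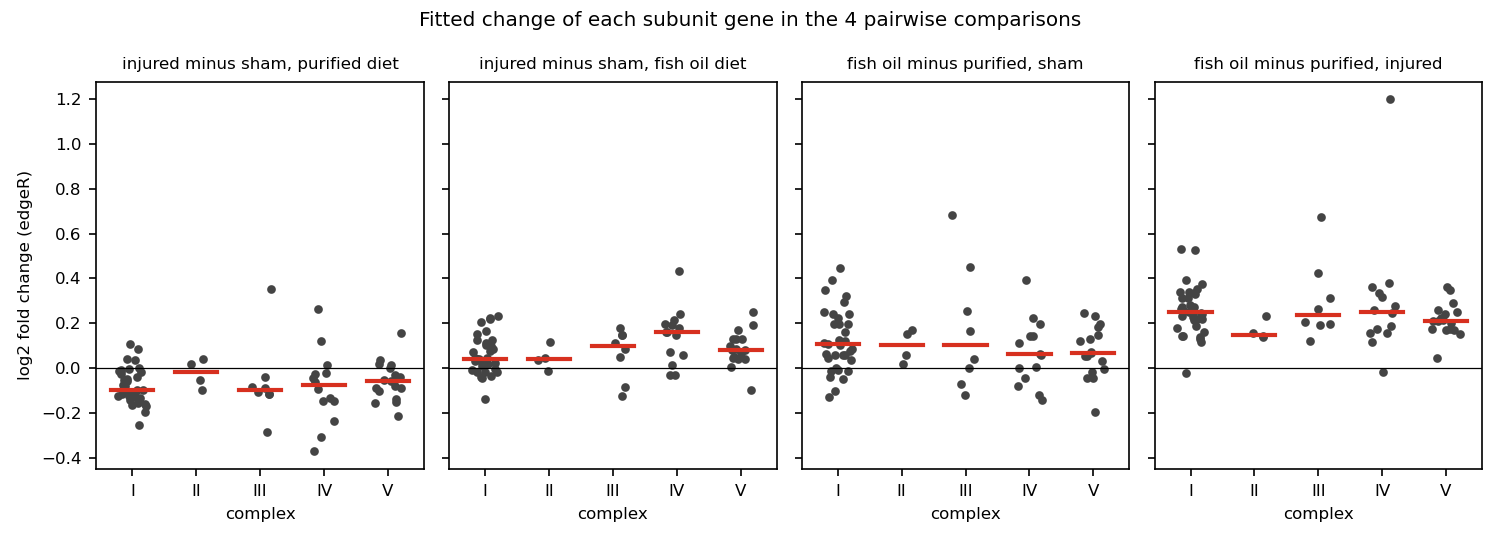
Fitted log2 fold change of each subunit gene (points) and the median of its complex (red bars), by complex on the horizontal axis, in the 4 pairwise comparisons. In injured mice the diet difference is above 0 for 76 of 78 genes, while injury on the purified diet gives 15 above 0.

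Complex I takes electrons from NADH. Ndufv1, which holds the NADH and flavin site, stood at 136, 117 and 121 CPM in purified sham, 128, 122 and 113 in purified injured, 134, 152 and 119 in fish oil sham and 116, 135 and 149.5 in fish oil injured libraries. Its groups overlapped in every comparison, and its diet difference in injured mice was 0.14 ± 0.12 on the log2 scale (SE, 3 libraries a group, as for all fold changes below; adjusted p = 0.689, edgeR). Ndufs1, the largest subunit and a carrier of iron-sulfur clusters, had 195, 183 and 183 CPM in purified sham, 163, 185 and 176 in purified injured, 188, 202 and 167 in fish oil sham and 206, 173 and 214 in fish oil injured libraries. The injured groups of Ndufs1 overlapped, with a diet difference of 0.18 ± 0.11.

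The accessory subunits of complex I held the lowest p-values of the complex. Ndufb11, an X-linked accessory subunit of the membrane arm (chromosome X, 20615326 to 20617619, minus strand), stood at 25.2, 21.9 and 29.1 CPM in purified sham and 24.4, 22.1 and 23.2 in purified injured libraries. Ndufb11 stood at 28.1, 31.8 and 27.4 CPM in fish oil sham and 28.5, 36.2 and 35.8 in fish oil injured libraries. Every fish oil injured library was above every purified injured library, and the difference was 0.53 ± 0.13 (adjusted p = 0.362, edgeR). With DESeq2 it was 0.52 ± 0.15 with an adjusted p of 0.047, in a fit that called members at near the share of all genes. Ndufb11's difference in sham mice was 0.19 ± 0.13, and the interaction was 0.33 ± 0.19 (adjusted p = 0.820, edgeR), so a difference between sham and injured mice in the size of the diet contrast was not shown. Over the 21 alternatives the diet difference of Ndufb11 in injured mice ran from 0.39 with the marker scores as covariates to 0.63 without fish oil injured library 2.

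Ndufb9, another accessory subunit of the membrane arm, had 32.4, 28.01 and 35.6 CPM in purified sham, 29.7, 25.1 and 30.5 in purified injured, 36.1, 36.6 and 34.6 in fish oil sham and 33.2, 36.1 and 41.3 in fish oil injured libraries. The fish oil injured libraries were again all above the purified injured ones, with a difference of 0.37 ± 0.12 (adjusted p = 0.401, edgeR). Ndufb4, the member of lowest CPM in complex I, had 10.8, 11.2 and 11.4 CPM, then 11.4, 8.01 and 11.7, 9.68, 11.4 and 10.1 and 11.3, 11.1 and 14.05 in the same order, with overlapping groups and a difference of 0.23 ± 0.16. The remaining members of complex I had diet differences in injured mice from -0.02 for Ndufb2 to 0.53 for Ndufc2, both named after their values were seen. Ndufb2 was the single member of the complex below 0. In 9 of the 35 members of complex I the fish oil injured libraries stood wholly above the purified injured ones, against 5.6% of all tested genes.

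Complex II is succinate dehydrogenase, also an enzyme of the citrate cycle, and all 4 of its subunits are nuclear. Sdha, the flavoprotein that oxidises succinate, had 501, 469 and 437 CPM in purified sham, 419.96, 466 and 469 in purified injured, 481, 518 and 464 in fish oil sham and 505, 511 and 492 in fish oil injured libraries. The fish oil injured libraries were all above the purified injured ones, by 0.15 ± 0.09 on the log2 scale (adjusted p = 0.565, edgeR). Sdhb, the iron-sulfur subunit, had 65.8, 63.95 and 72.3 CPM, then 70.6, 62.1 and 72.1, 76.3, 79.8 and 71.1 and 67.2, 77.6 and 80.5 in the same order, and its injured groups overlapped. Its diet difference was 0.17 ± 0.10 in sham and 0.14 ± 0.10 in injured mice, 2 values closer together than their errors.

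The membrane anchors of complex II are Sdhc and Sdhd. Sdhc had 55.05, 47.3 and 50.8 CPM in purified sham, 46.9, 60.1 and 50.4 in purified injured, 60.6, 55.6 and 53.6 in fish oil sham and 54.8, 56.4 and 62.7 in fish oil injured libraries, with overlap and a diet difference in injured mice of 0.14 ± 0.11. Sdhd had 73.6, 67.6 and 66.7 CPM, then 60.4, 66.2 and 67.9, 70.3, 74.5 and 65.9 and 70.3, 76.5 and 81.7, and here the fish oil injured libraries were all above the purified injured ones (0.23 ± 0.09; adjusted p = 0.430, edgeR). Complex II had the least spread between libraries of a group: the median within-group SD of log2 CPM was 0.10 over its 4 genes, against 0.150 over all 78 members and 0.176 over 9789 tested genes of 10 to 1000 CPM.

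Complex III passes electrons from ubiquinol to cytochrome c. Uqcrfs1, the Rieske iron-sulfur protein, had 74.8, 69.7 and 75.9 CPM in purified sham, 62.01, 71.2 and 71.1 in purified injured, 74.7, 83.3 and 68.8 in fish oil sham and 73.9, 74.03 and 86.3 in fish oil injured libraries. Its fish oil injured libraries were all above the purified injured ones, with a difference of 0.20 ± 0.10 (adjusted p = 0.519, edgeR). Uqcrc1 and Uqcrc2 are its core proteins. Uqcrc1 had 149, 134 and 129 CPM, then 152, 126 and 123, 147, 180.3 and 135 and 127, 152 and 158 in the same order, with overlap and a difference of 0.12 ± 0.13. Uqcrc2 had 242, 218 and 212 CPM, then 201, 204 and 214, 223, 247 and 201 and 248, 239 and 255, so that all fish oil injured libraries exceeded all purified injured ones (0.27 ± 0.10; adjusted p = 0.408, edgeR). The difference between these core genes was not tested, and their errors overlap.

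Uqcrh, the acidic hinge protein that binds cytochrome c1 (chromosome 4, 116066965 to 116075071, minus strand; its upstream window is printed above), followed a different order. It had 140.03, 124 and 127 CPM in purified sham, 87.4, 116 and 117 in purified injured, 120.1, 123 and 116 in fish oil sham and 135, 117 and 146 in fish oil injured libraries. On the purified diet all injured libraries lay below all sham libraries, by -0.29 ± 0.12 on the log2 scale (adjusted p = 0.763, edgeR). Without purified injured library 2, the lowest of the 12, that difference was -0.16. In sham mice Uqcrh was the one member with all fish oil libraries below all purified ones (-0.12 ± 0.12), and in injured mice they were all above (0.31 ± 0.12; adjusted p = 0.427, edgeR). The interaction was 0.43 ± 0.18 (adjusted p = 0.820, edgeR).

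Uqcrq, an accessory subunit and the member of lowest CPM in complex III, was among the most variable. It had 4.38, 4.94 and 7.61 CPM in purified sham, 10.6, 7.03 and 3.98 in purified injured, 8.97, 8.99 and 9.23 in fish oil sham and 4.52, 10.02 and 10.4 in fish oil injured libraries. Its fish oil sham libraries lay close together and above all purified sham libraries (0.68 ± 0.37; adjusted p = 0.934, edgeR), while both injured groups were spread over more than 2-fold. The other 3 members of complex III had diet differences in injured mice from 0.19 to 0.68, the highest being Uqcr11 at 0.68 ± 0.38, named after its values were seen. With the marker scores as covariates the difference of Uqcr11 was -0.51.

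Complex IV, cytochrome c oxidase, has the most tissue-specific isoforms. Subunit IV was read almost wholly from Cox4i1, the ubiquitous form: Cox4i1 had 268, 243 and 289 CPM in purified sham, 259, 259 and 256 in purified injured, 299.8, 325 and 257 in fish oil sham and 238, 319.5 and 304 in fish oil injured libraries. Cox4i2, the lung and hypoxia form, was under the level limit, with 0.463, 0.681 and 0.535 CPM in purified sham, 0.473, 0.693 and 0.2 in purified injured, 0.513, 0.549 and 0.726 in fish oil sham and 0.545, 0.632 and 0.597 in fish oil injured libraries. The purified injured values of Cox4i1 lay close together and inside the range of the fish oil injured ones, at a diet difference of 0.15 ± 0.13. Cox5a, a ubiquitous matrix-side subunit, had 52.5, 44.5 and 46.6 CPM, then 37.98, 48.2 and 43.3, 43.6, 45.5 and 42.9 and 50.3, 37.1 and 58.9 in the same order, with overlap and a difference of 0.18 ± 0.15. Without fish oil injured library 4 the difference of Cox5a was 0.01, and without fish oil injured library 3 it was 0.34.

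Subunit VIa comes as Cox6a1, the general form, and Cox6a2, the heart and muscle form. Cox6a1, whose upstream window with the NRF1 string is printed above, had 33.5, 32.6 and 48.98 CPM in purified sham, 39.6, 30.7 and 33.6 in purified injured, 44.6, 41.2 and 41.3 in fish oil sham and 34.1, 44.3 and 55.4 in fish oil injured libraries (0.36 ± 0.19 for diet in injured mice, with overlap). Cox6a2 had 0.76, 1.11 and 1.69 CPM, then 1.38, 0.326 and 1.04, 0.685, 1.92 and 2.07 and 0.945, 1.86 and 3.52. It held the largest diet difference of any member in injured mice and also the largest error, 1.20 ± 0.62 (adjusted p = 0.509, edgeR), and its groups overlapped. Without fish oil injured library 4 the difference of Cox6a2 was 0.61, and with the marker scores as covariates it was -0.61. In the brain Cox6a2 is known from parvalbumin interneurons, and Pvalb, their marker, stood at 74.9, 41.4 and 56.3 CPM in purified sham, 27.1, 17.7 and 15.9 in purified injured, 16.6, 67.9 and 42.9 in fish oil sham and 44.1, 17.4 and 102 in fish oil injured libraries. The highest value of both genes was in fish oil injured library 4; the part of Pvalb cells in the Cox6a2 values was not tested.

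Subunit VIb comes as Cox6b1, the general form, and Cox6b2, the testis form. Cox6b1 had 135, 116 and 133 CPM in purified sham, 104, 108 and 139 in purified injured, 131, 117 and 125 in fish oil sham and 134, 135 and 157 in fish oil injured libraries. Its injured libraries on the fish oil diet were all above the sham libraries of that diet (0.19 ± 0.12), and the diet difference in injured mice was 0.28 ± 0.12 (adjusted p = 0.465, edgeR) with overlap of the groups. Cox6b2 had 1.802, 1.02 and 1.18 CPM, then 1.02, 1.75 and 2.04, 1.18, 1.44 and 1.405 and 1.49, 2.11 and 1.15, without order by group and with a diet difference in injured mice of -0.02 ± 0.34, the one value below 0 in complex IV.

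Subunit VIIa was read from Cox7a2, the general form, with 89.1, 78.2 and 91.2 CPM in purified sham, 70.2, 85.2 and 86.9 in purified injured, 93.02, 94.3 and 82.9 in fish oil sham and 97.1, 91.98 and 113 in fish oil injured libraries. All its fish oil injured libraries exceeded the purified injured ones (0.32 ± 0.12; adjusted p = 0.408, edgeR). Cox7a1, the heart and muscle form, was under the limit with 0.926, 0.873 and 0.553 CPM in purified sham, 0.394, 0.978 and 0.98 in purified injured, 0.856, 0.761 and 0.726 in fish oil sham and 0.836, 1.18 and 1.19 in fish oil injured libraries. Cox7a2l, a paralog of Cox7a2, is listed here by its symbol. It had 89.8, 75.9 and 98.4 CPM, then 85.9, 85.1 and 89.2, 107, 102 and 92.7 and 84.3, 104 and 108. Its difference was the same in sham mice (0.19 ± 0.12) and injured mice (0.19 ± 0.12) to 2 decimals, with overlapping groups in both.

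Cox7b, a small X-linked subunit (chromosome X, 106015700 to 106022450, plus strand), had 115, 102 and 107 CPM in purified sham and 80.5, 83.6 and 97.6 in purified injured libraries. Cox7b on the fish oil diet had 89.3, 103 and 101 CPM in sham and 112, 100.2 and 128 in injured libraries. Its purified injured libraries were below every library of the purified sham group (-0.31 ± 0.12; adjusted p = 0.763, edgeR) and below every library of the fish oil injured group (0.38 ± 0.12; adjusted p = 0.386, edgeR). Its interaction, 0.52 ± 0.16, had the lowest unadjusted p among members for that term, with an adjusted p of 0.820 by edgeR. Cox7b2, its testis paralog, and Cox8b, the heart and muscle form of subunit VIII, were under the limit at means of 0.144 and 0.203 CPM.

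Cox8a, the general form of subunit VIII, had 41.6, 36.8 and 45.5 CPM in purified sham, 40.02, 41.1 and 37.5 in purified injured, 43.8, 41.02 and 39.004 in fish oil sham and 40.1, 41.99 and 59.9 in fish oil injured libraries. One library, fish oil injured 4, stood far above the other 11, and the diet difference in injured mice was 0.26 ± 0.15. Ndufa4 had 152, 129 and 143 CPM, then 126, 142 and 148, 149, 153 and 139.6 and 156, 148 and 189, and its fish oil injured libraries were all above the purified injured ones, the closest pair by less than 1 CPM (0.25 ± 0.11; adjusted p = 0.473, edgeR). Its hypoxia-induced paralog Ndufa4l2 was under the limit, at 1.26, 0.745 and 0.642 CPM in purified sham, 0.63, 0.652 and 0.4 in purified injured, 0.532, 0.507 and 0.565 in fish oil sham and 0.291, 0.667 and 0.346 in fish oil injured libraries. The other 3 members of complex IV had differences from 0.12 to 0.34, the last being Cox6c, named after its values were seen, with an interaction of 0.42 ± 0.18 (adjusted p = 0.820, edgeR).

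ATP synthase held the members of highest level. Atp5a1 and Atp5b form the catalytic head. Atp5a1 had 809, 746 and 756 CPM in purified sham, 716, 794 and 752 in purified injured, 821, 882 and 726 in fish oil sham and 796, 862 and 889 in fish oil injured libraries, with the lowest fish oil injured value just above the highest purified injured one (0.17 ± 0.10; adjusted p = 0.562, edgeR). Atp5b had 1046, 924 and 933 CPM, then 841, 1012 and 891, 989, 1109 and 917 and 1021, 945 and 1133 in the same order, with overlap and a difference of 0.18 ± 0.12. Atp5c1, the central stalk, had 159, 148 and 162 CPM, then 145, 172 and 153, 169.6, 177 and 167 and 172, 162 and 192. Its separation was in sham mice, where all fish oil libraries exceeded all purified ones (0.13 ± 0.10; adjusted p = 0.934, edgeR), and its difference in injured mice was 0.17 ± 0.10.

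Atp5f1, the b subunit of the peripheral stalk (chromosome 3, 105942698 to 105960099, minus strand), had 175, 155 and 175 CPM in purified sham, 145, 142 and 148 in purified injured, 159, 178 and 152 in fish oil sham and 184, 158 and 215 in fish oil injured libraries. As in Cox7b, its purified injured libraries lay together below both the purified sham (-0.21 ± 0.12; adjusted p = 0.778, edgeR) and the fish oil injured libraries (0.36 ± 0.12; adjusted p = 0.401, edgeR). The interaction was 0.41 ± 0.16 (adjusted p = 0.820, edgeR). Atp5s, a coupling factor listed here by its symbol and the member of lowest CPM in the group, had 16.4, 12.4 and 17.2 CPM, then 13.97, 13.8 and 14.96, 18.3, 18.9 and 16.8 and 17.3, 14.1 and 19.02, with overlapping injured groups and differences of 0.23 ± 0.15 in sham and 0.24 ± 0.15 in injured mice.

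The proton-carrying c ring has 3 genes, Atp5g1, Atp5g2 and Atp5g3, that encode the same mature protein behind different import sequences. Atp5g1 had 92.4, 86.6 and 90.2 CPM in purified sham, 88.6, 93.3 and 90.9 in purified injured, 103, 103 and 91.7 in fish oil sham and 96.3, 113 and 117 in fish oil injured libraries. Its fish oil injured libraries were all above the purified injured ones (0.26 ± 0.09; adjusted p = 0.408, edgeR). Atp5g2 had 22.4, 25.6 and 25.1 CPM, then 24.8, 32.04 and 24.6, 31.01, 29.7 and 23.1 and 24.2, 32.5 and 27.4, with overlap and a difference of 0.05 ± 0.16, the smallest in complex V. Atp5g3, printed above with its receptor string, had 94.4, 83.4 and 97.2 CPM, then 85.7, 100.3 and 91.7, 101, 104 and 93.01 and 97.5, 94.7 and 117, with overlap and a difference of 0.15 ± 0.11. Thus 1 of the 3 c ring genes separated the injured groups by diet, and differences between the 3 genes were not tested. The other 9 members of complex V had diet differences in injured mice from 0.17 to 0.35.

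Levels were compared between genes only per length, as CPM per kilobase of the summed exons of a gene, a scale that understates genes with long rare exons. On it the highest members were Atp5a1 at 254 (228 to 283 over the 12 libraries), Atp5b at 231 (198 to 267), Cox6b1 at 181 (146 to 222) and Cox4i1 at 178 (154 to 210). Neighbours in that order overlap in their ranges over libraries, whereas Sdha, next at 116 (102 to 126), lies wholly below Cox4i1. At the low end were Ndufb2 at 3.78, Cox6a2 at 2.12 and Cox6b2 at 1.32. The general isoform was above the tissue form in both pairs that passed the level limit: Cox6a1 at 57.0 against Cox6a2 at 2.12, and Cox6b1 against Cox6b2.

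**Figure D3:**
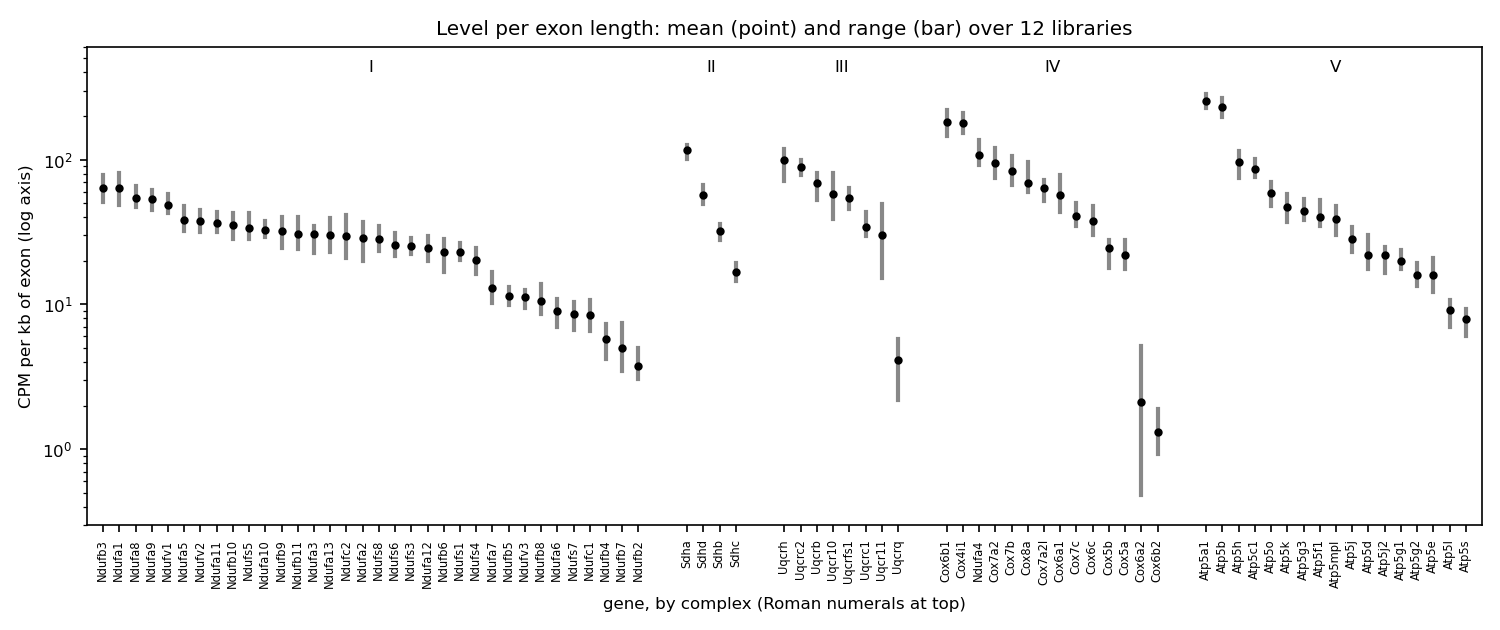
Mean (points) and range over the 12 libraries (bars) of CPM per kilobase of exon for 77 of the 78 subunit genes, on a log axis, by complex and in falling order within each. Atp5a1 at 254 and Atp5b at 231 are highest, and the tissue-specific isoforms Cox6a2 and Cox6b2 are lowest.

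Assembly factors build the complexes but are not part of them. Of 46 listed, 45 were tested, and in the diet comparison of injured mice 33 of the 45 were above 0 with a median of 0.14; 4 higher and 2 lower had an unadjusted p under 0.05, near the 10.7% of all tested genes, and 0 passed the adjusted threshold by edgeR. The 13 subunits encoded by the mitochondrial genome were all above 0 in that comparison, with a median of 0.27 and 1 at an unadjusted p under 0.05. Their levels differed widely. The transcript mt-Co1 ran from 19617 to 30076 CPM and mt-Nd3 from 12.1 to 49.03 CPM. Levels of mt-Co2, mt-Co3, mt-Atp6, mt-Atp8 and mt-Nd4l lay between 0.535 and 4.60 CPM. The count and median weigh all 13 alike, and the cause of the low levels was not tested. The median within-group SD of the 13 was 0.301, against 0.150 for the nuclear members. Among them mt-Nd3, a complex I core subunit, had 23.2, 35.1 and 49.03 CPM in purified sham and 12.1, 17.7 and 23.2 in purified injured libraries, with injured minus sham at -1.02 ± 0.28 (adjusted p = 0.763, edgeR) and all injured libraries below all sham ones, the closest pair by less than 1 CPM. Cycs, the mobile carrier cytochrome c, had 90.03, 84.04 and 87.5 CPM in purified sham, 68.1, 74.1 and 80.04 in purified injured, 80.1, 89.8 and 78.4 in fish oil sham and 87.8, 83.1 and 103 in fish oil injured libraries. Each of its purified injured libraries was below every library of the other groups except fish oil sham 4. The closest pair stood at 80.04 and 80.07 CPM. Its diet difference in injured mice was 0.30 ± 0.11 (adjusted p = 0.407, edgeR). Cyc1 and Ndufab1, listed with Cycs, also fall outside the symbol patterns and the 78 members, and their injured groups overlapped. Cyc1 had 78.6, 94.1 and 81.5 CPM in purified injured and 78.1, 86.3 and 97.1 in fish oil injured libraries. Ndufab1 had 29.8, 31.6 and 32.1 against 31.5, 21.3 and 33.4 CPM.

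**Figure D4:**
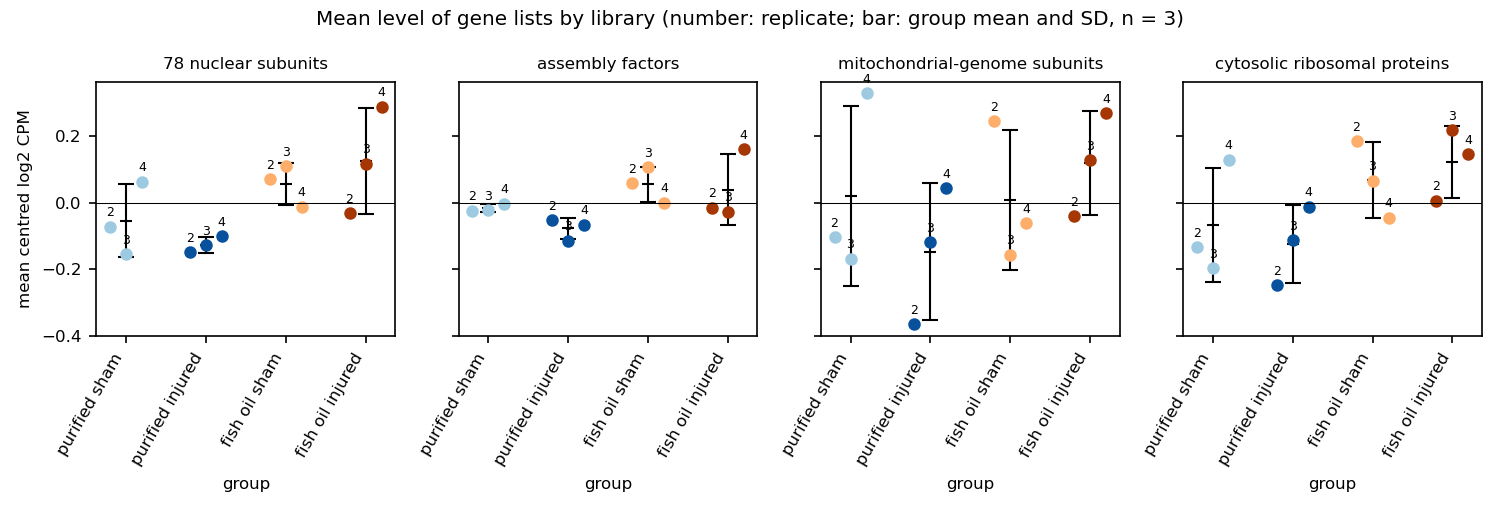
Mean of the centred log2 CPM of the genes of 4 lists in each library (points, numbered by replicate) with the group mean and SD (bars, n = 3). For the 78 nuclear subunits the purified injured libraries lie between -0.15 and -0.10 and fish oil injured library 4 at 0.29.

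The 11 citrate cycle genes were all below 0 for injury on the purified diet, with a median of -0.13. For diet in injured mice all 11 were above 0, with a median of 0.13. Of them 3 had an unadjusted p under 0.05, against 10.7% of all tested genes. Mitochondrial ribosomal protein genes were above 0 in 65 of 77, with a median of 0.14. The 12 regulators were mixed, with 7 above 0 and a median of 0.06. Chchd2, a mitochondrial protein that also acts on transcription of the complex IV gene Cox4i2, had a diet difference in injured mice of 0.31 ± 0.11 (adjusted p = 0.408, edgeR), Ppargc1a, which encodes PGC-1α, had 0.09 ± 0.21, and its relative Pprc1 had -0.35 ± 0.16 (adjusted p = 0.465, edgeR). Genes outside mitochondria shared the direction: all 80 cytosolic ribosomal protein genes were above 0 with a median of 0.22. In 29 of them the fish oil injured libraries stood wholly above the purified injured ones, against 5.6% of all tested genes. Values above 0 in this comparison were therefore also common outside the respiratory chain.

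Subunit genes are short, and the median diet difference in injured mice was higher for short genes in general. The median transcript of the 78 members was 870 bases, against 3675 for 9528 other protein-coding genes of at least 10 CPM, ribosomal proteins left out, and 45 members (57.7%) but 200 of the others (2.10%) were under 1000 bases. Among the others, the median diet difference in injured mice was 0.18 for 38 genes under 700 bases, 0.14 for 162 from 700 to under 1000, 0.11 for 555 from 1000 to under 1500, 0.07 for 1694 from 1500 to under 2500 and 0.03 for 7079 of 2500 and over. By library this held for fish oil injured 3 and 4 and not for 2: the other genes from 700 to under 1000 bases had median centred log2 CPM of -0.05, 0.10 and 0.15 in fish oil injured libraries 2, 3 and 4, and those of 2500 and over had 0.04, 0.02 and 0.0047. In fish oil sham libraries 2 and 3 the shorter class also stood higher, at 0.08 and 0.10 against -0.03 and -0.02. It stood lower in purified injured libraries 2 and 3, at -0.06 and -0.14 against -0.02 and -0.01, and in purified sham library 3, at -0.14 against 0.04. Purified sham library 4 went the other way, at 0.04 against -0.02. Low values in purified injured libraries thus also enter the diet difference of short genes. Members in the same length classes had medians of 0.27, 0.23, 0.23, 0.19 and 0.16, over 26, 19, 13, 14 and 6 genes. With offsets for transcript length and GC content in each library, an alternative added after seeing the data, 73 of 78 members were above 0, the median was 0.18 and 14 had an unadjusted p under 0.05. RNA quality was not analysed here, and its part in the length trend was not tested.

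**Figure D5:**
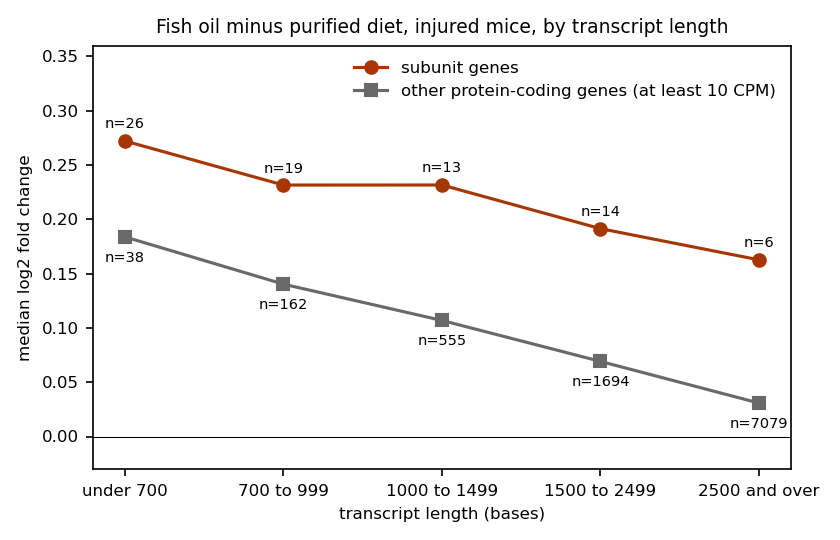
Median log2 fold change of fish oil minus purified diet in injured mice by transcript length class, for subunit genes (circles) and other protein-coding genes of at least 10 CPM (squares), with the number of genes at each point. Both fall with length, from 0.27 to 0.16 and from 0.18 to 0.03, and subunit genes lie above the others in each class.

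Some members resemble other loci. By sequence comparison of transcripts, 21 of the 78 match at least 1 annotated pseudogene over 100 bases or more at 95% identity or more, and the most matches for a member was 9, for Atp5l. How reads that map to several places were counted is not given in the sources used here. The level of these members is therefore uncertain. Atp5g1 and Ndufc1 share such stretches with 19 and 25 other genes, over at most 411 of 4715 bases in Atp5g1 and 130 of 1249 in Ndufc1. Those genes held 531867 counts against 64582 for Atp5g1 and 622569 against 8427 for Ndufc1 over the 12 libraries, so both levels and the diet values of Atp5g1 above are uncertain. Ndufb11, Cox7b and Cox7a2l match 1 or 2 pseudogenes each, and the counts listed on the copies came to 22 against 18599 for Ndufb11, 30 against 67637 for Cox7b and 137 against 62340 for Cox7a2l over the 12 libraries.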

How the data were processed

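Total RNA from 12 brain libraries (4 groups of 3) was isolated with a column kit and sequenced as paired reads after a strand-preserving library preparation, per the labels' protocols. Per the submitters' processing notes, STAR 2.5.2a, featureCounts 1.4.3-p1 and the mm10 build were used. For the annotation release, the strand setting and multiply mapped reads, no choice is stated in those notes or labels (not given in the sources used here). The authors deposited raw counts per gene, and values of 2 (20514) outnumber values of 1 (11222), so both mates of a pair appear to be counted. Without a strand setting, overlapping and antisense genes may share reads.

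Symbols came from GENCODE M21, in which 53274 of 53379 identifiers matched without and 50604 with version (64 of the 78 members with version). filterByExpr kept 19252 genes. Counts were scaled by TMM and fitted in edgeR 4.0.16 (R 4.3.3; glmQLFit and glmQLFTest, robust) to all 12 libraries with 4 group means and 8 residual degrees of freedom, which assumes 1 spread for the groups; p-values were adjusted by Benjamini-Hochberg over all 19252 genes, with a threshold of 0.05. Errors of fold changes are standard errors derived from the same fit. CPM are TMM-scaled. The common biological coefficient of variation was 0.289, so depth was not the main limit. Replicates differed beyond sampling noise (lowest chi-square 29.8 per degree of freedom), and none was merged. All columns were mapped. The fitting code was tested on simulated counts. Transcripts were compared with blastn 2.17.0.

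The members and lists were chosen with earlier results of these data known. Named members are isoforms and paralogs, core catalytic subunits, the 2 members of smallest p and those of highest and lowest mean CPM in each complex; other names are marked as chosen after their values were seen. Some genes under this rule are not reported here. Alternatives were RLE factors, DESeq2 1.42.0, limma-voom 3.58.1, 2 other low-count filters, a replicate block, each library left out, 2 libraries of other regions left out, and 3 marker scores as covariates. Offsets for transcript length and GC (splines of 4 degrees of freedom) were added after seeing the data.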

Additional observations from a re-analysis of the deposited data

How the results depend on the processing

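Each result was recomputed under 21 alternatives. The number of members past the adjusted threshold stayed 0 in all 7 comparisons, with 1 exception. With DESeq2 in the diet comparison of injured mice it was 1 (Ndufb11, log2 fold change 0.52), near the share of all genes called there. When a library was left out, the median of the interaction ran from 0.055 without fish oil injured library 4 to 0.20 without fish oil injured library 2. The median of diet in injured mice then ran from 0.15 to 0.28. With the marker scores as covariates the interaction medians in complexes I to V were 0.0079, 0.088, -0.069, 0.17 and 0.17. In the main fit they were 0.16, 0.045, 0.20, 0.24 and 0.13. Medians of injury on the fish oil diet were -0.048, 0.014, -0.029, 0.17 and 0.078 with those covariates, against 0.039, 0.039, 0.096, 0.16 and 0.081. Members with an unadjusted p under 0.05 for diet in injured mice numbered 38 without fish oil injured library 2, 13 without purified injured library 2, 10 without purified injured library 3 and fish oil sham library 2 together, and 2 without fish oil injured library 4. These counts stand without the share of all tested genes under the same alternatives. With the 3 marker scores as covariates, signs turned in the diet comparison of injured mice in 13 of 41 named genes. Among those whose value exceeded its standard error these were Sdhb (-0.085), Cox4i1 (-0.070), Cox6a1 (-0.012), Cox6a2 (-0.61), Ndufv1 (-0.00031), Ndufb4 (-0.10), Uqcr11 (-0.51) and Pprc1 (0.0066). Among those within their standard error they were Uqcrc1 (-0.11), Uqcrq (-0.58), Atp5g2 (-0.17), Cox6b2 (0.22) and Ndufb2 (0.27). For injury on the fish oil diet the sign of Atp5g1 turned (-0.0064). Over all alternatives 32 of 106 named fold changes turned sign at least once, and without fish oil injured library 4 alone 25 of the 41 for diet in injured mice moved by over 1.5 times. With the length and GC offsets Uqcrh turned for diet averaged over injury (-0.0056). The cause of these turns was not tested, and the fit with marker scores cannot tell diet from tissue content in injured mice. Replicate numbers did not pair the libraries: of 18 pairs of the same number in different groups, 3 had correlations of their deviations over 0.1, with a median of -0.02. With the replicate block, members with an unadjusted p under 0.05 for diet in injured mice numbered 16, their median was 0.23, and 0 passed the adjusted threshold in edgeR. With 3 libraries a group, differences of the size seen here are close to the spread between libraries.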
